A study of Mus musculus with 8 samples.

Results

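Wt1, Rtn4rl2, Sulf1, Ecm1, Ccbe1, Man1a and Prl2c3 are 7 mouse genes chosen by a strong rise in read count when cultured myotubes were exposed to oncostatin M (OSM). They are 7 of the 53647 genes in the count files, all 7 passed the filter on low counts, and 15603 genes passed it in all. The values that chose them are those of OSM against control, so that contrast and the other contrasts with OSM are given here as a description, with no test. The cultures were wild-type primary myotubes, the multinucleated fibres that form when muscle precursor cells fuse, grown from limb muscle of pups 2 to 3 days old and differentiated in 5% horse serum. They received OSM, LIF (leukaemia inhibitory factor) or IL6 (interleukin 6), each at 250 ng/ml for 48 h, or were labelled control, and RNA was taken 72 h after differentiation began. Each of the 4 groups has 2 libraries, and the labels do not say whether these are separate litters, animals or dishes, so a p-value here measures only the spread between such libraries, which may be technical.

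OSM, LIF and IL6 share the receptor subunit gp130, encoded by Il6st, and each adds a subunit of its own: OSMR for mouse OSM, LIFR for LIF and IL6RA for IL6. Binding activates JAK kinases, which phosphorylate STAT transcription factors, chiefly STAT3, and SOCS3 then limits the signal. The 7 genes encode proteins of different kinds. WT1 is a zinc-finger transcription factor needed for the kidney, gonad and mesothelium. RTN4RL2 is a membrane-anchored relative of the Nogo receptor, which binds inhibitors of axon growth. SULF1 is a secreted sulfatase that edits heparan sulfate outside the cell, and ECM1 is a secreted matrix glycoprotein. CCBE1 is a secreted protein that helps the protease ADAMTS3 mature the lymphatic growth factor VEGF-C. MAN1A is a Golgi mannosidase that trims N-linked glycans. Prl2c3 belongs to the proliferins, secreted relatives of prolactin known from the mouse placenta.

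CPM stands for counts scaled to a library size of 1e6. Libraries held 29482077 to 30025471 counts assigned to genes, with 21358 to 21831 genes detected. The 10 myotube markers checked were all tested, and their summed level was 24051 to 25083 CPM in control, 20820 to 23580 with IL6, 22065 to 23367 with LIF and 21261 to 21431 with OSM. The cultures therefore carry the markers of their label in every group. In that sum both libraries of each cytokine lay below both control libraries. With OSM the median log2 change of the 10 was −0.21, against −0.003 over all tested genes. At an unadjusted p under 0.05 edgeR gave 9 of the 10, and 5115 of all 15603 tested genes. DESeq2 called 7 of the 10, and 2776 of all tested genes. With OSM edgeR called 2 lower, Myog by 0.53 and Myh8 by 0.20 on the log2 scale (adjusted p 0.000696 and 0.0447). Des was called higher by 0.30 (edgeR adjusted p 0.00411). With LIF the same genes were called, Myog lower by 0.43, Myh8 lower by 0.24 and Des higher by 0.55. Of 8 fibroblast markers 6 were tested, and with OSM 3 were called higher by edgeR, Pdgfra, Col3a1 and Ly6a, and 0 lower. Over all tested genes 10.8% were called higher with OSM and 10.6% lower. Their sum was 1682 to 1757 CPM in control, 1553 to 1751 with IL6, 2056 to 2113 with LIF and 2147 to 2257 with OSM, and Col3a1, a fibrillar collagen, made up most of it. Col1a1, another collagen of the list, had means of 239.2 CPM in control, 126.5 with IL6, 150.6 with LIF and 78.4 with OSM and was not called (OSM against control −1.61, edgeR adjusted p 0.0858). Lum was at 0 in each library, Thy1 had at most 1 count and Dcn 69 to 108 counts. Macrophage markers (2 of 6 tested, with Adgre1 at most 1 count) summed to 2.68 to 2.92 CPM in control, 3.24 to 4.53 with IL6, 3.57 to 3.79 with LIF and 5.13 to 5.44 with OSM. Cd68 made up most of these sums, at 1.98 CPM in control and 4.05 with OSM (1.03, edgeR adjusted p 0.00186). Ptprc had at most 3 counts, Lyz2 at most 5 and Csf1r at most 7. In all libraries endothelial markers (3 of 6 tested) summed to 26.5 to 35.2 CPM. Prox1 made up most of that, at 28.6 to 31.8 CPM in the group means. Pecam1 had 5 to 17 counts, Cdh5 14 to 35, and Kdr and Lyve1 at most 4. Schwann cell markers (2 of 4 tested) summed to 5.25 to 7.53 CPM and mural cell markers (3 of 5 tested) to 20.3 to 28.4 CPM in all libraries. Most of the mural sum was Abcc9, at 18.7 to 24.2 CPM in the group means. Rgs5 had 5 to 31 counts and was called lower with OSM (−1.92, edgeR adjusted p 0.0244). Myoblast markers (4 of 4 tested) summed to 253.6 to 296.1 CPM in control, 256.0 to 285.6 with IL6, 285.7 to 296.1 with LIF and 299.5 to 323.3 with OSM. With OSM 2 of them were called higher, Pax7 by 0.39 and Myf5 by 0.82 on the log2 scale (edgeR adjusted p 0.000852 and 0.0316). None was called lower, where 10.8% of all tested genes were called higher and 10.6% lower. The fibroblast, macrophage and myoblast sums are highest with OSM, as the 7 genes are, while the myotube sums are highest in control. Schwann cell sums were 7.53 and 6.44 CPM with OSM and 5.28 and 7.10 with LIF, so these overlap. The part of any of these cells in the results was not tested, and in bulk RNA a change in the number of cells of a type and a change in RNA per cell cannot be told apart.

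Promoter sequence is shown for Ecm1 and Prl2c3 because both hold the letters searched here for AP-1, a factor family that gp130 cytokines are known to engage. The windows are the 250 bases before the RefSeq start on build GRCm38.p6, printed on the gene's own strand. This is an earlier build than the GRCm39 named in the submitters' processing notes, and the positions apply to GRCm38.p6 only. The Ecm1 window is chr3:95739570-95739819 on the minus strand, and capitals mark the AP-1 match, 64 bases before the start.

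Ecm1: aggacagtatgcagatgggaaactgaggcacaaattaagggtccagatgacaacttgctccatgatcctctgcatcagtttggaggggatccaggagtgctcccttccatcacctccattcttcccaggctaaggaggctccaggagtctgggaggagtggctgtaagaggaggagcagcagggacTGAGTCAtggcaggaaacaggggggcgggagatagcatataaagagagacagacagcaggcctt

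The Prl2c3 window is chr13:12800080-12800329 on the minus strand, with its AP-1 match 209 bases before the start. It is set beside that of Prl2c5, a relative at chr13:13182466-13182715 on the plus strand, because the windows are 96.0% identical (241 of 251 aligned columns) while the genes' counts, given further on, are far apart. Capitals mark the bases that differ or have no partner in the alignment.

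Prl2c3: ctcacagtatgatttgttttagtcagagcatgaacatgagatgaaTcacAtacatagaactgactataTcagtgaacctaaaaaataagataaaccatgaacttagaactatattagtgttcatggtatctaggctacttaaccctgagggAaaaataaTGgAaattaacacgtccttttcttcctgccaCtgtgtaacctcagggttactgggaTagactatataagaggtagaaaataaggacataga

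Prl2c5: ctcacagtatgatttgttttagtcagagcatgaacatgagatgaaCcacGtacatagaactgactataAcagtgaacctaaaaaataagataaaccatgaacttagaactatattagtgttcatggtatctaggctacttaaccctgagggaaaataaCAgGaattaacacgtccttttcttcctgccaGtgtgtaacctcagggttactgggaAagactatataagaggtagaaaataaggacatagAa

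Both strands were searched for 3 motifs. The STAT motif was read as TTCNNNGAA. The letters taken for AP-1 were TGANTCA, with the middle base left free. The match was TGAGTCA in Ecm1 and TGAATCA in Prl2c3. Those for the C/EBP family were TTGCNCAA. Windows of 4 of the 7 genes were searched, those of Ecm1, Prl2c3, Rtn4rl2 and Man1a, and promoters of Wt1, Sulf1 and Ccbe1 were not analysed here. None of the 4 windows held the STAT or C/EBP letters, which 7.02% and 2.61% of 32851 windows of the same length held. AP-1 letters were in 6.75% of all windows. The Rtn4rl2 and Man1a windows held none of the motifs and were 73.6% and 72.4% G or C, against 54.0% for Ecm1 and 35.2% for Prl2c3. Prl2c5 held no AP-1 match. A match describes letters in a window and is not evidence of binding.

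In all 7 genes the group means ran in the order control, IL6, LIF, OSM. In CPM neither library of any group overlapped the group below it in all 7. The gap was narrow for Prl2c3 between IL6 and LIF. Between control and IL6 the nearest libraries had 2.68 and 2.80 CPM for Rtn4rl2, 2.92 and 3.24 for Prl2c3, and 4.47 and 5.06 for Ccbe1. Among all tested genes this complete order without overlap held for 1.7%, but it contains the rise with OSM that chose the 7, so nothing is read from the count. Levels per length differed widely. In control, Ecm1 stood highest at 59.7 CPM per kilobase of exon, followed by Sulf1 at 9.72, Man1a at 2.96, Prl2c3 at 1.91, Rtn4rl2 at 1.60, Ccbe1 at 0.334 and Wt1 at 0.115. With OSM the same scale gave 366.1 for Ecm1, 36.8 for Sulf1, 24.4 for Prl2c3, 20.0 for Rtn4rl2, 13.4 for Man1a, 3.202 for Ccbe1 and 2.18 for Wt1.

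**Figure D1:**
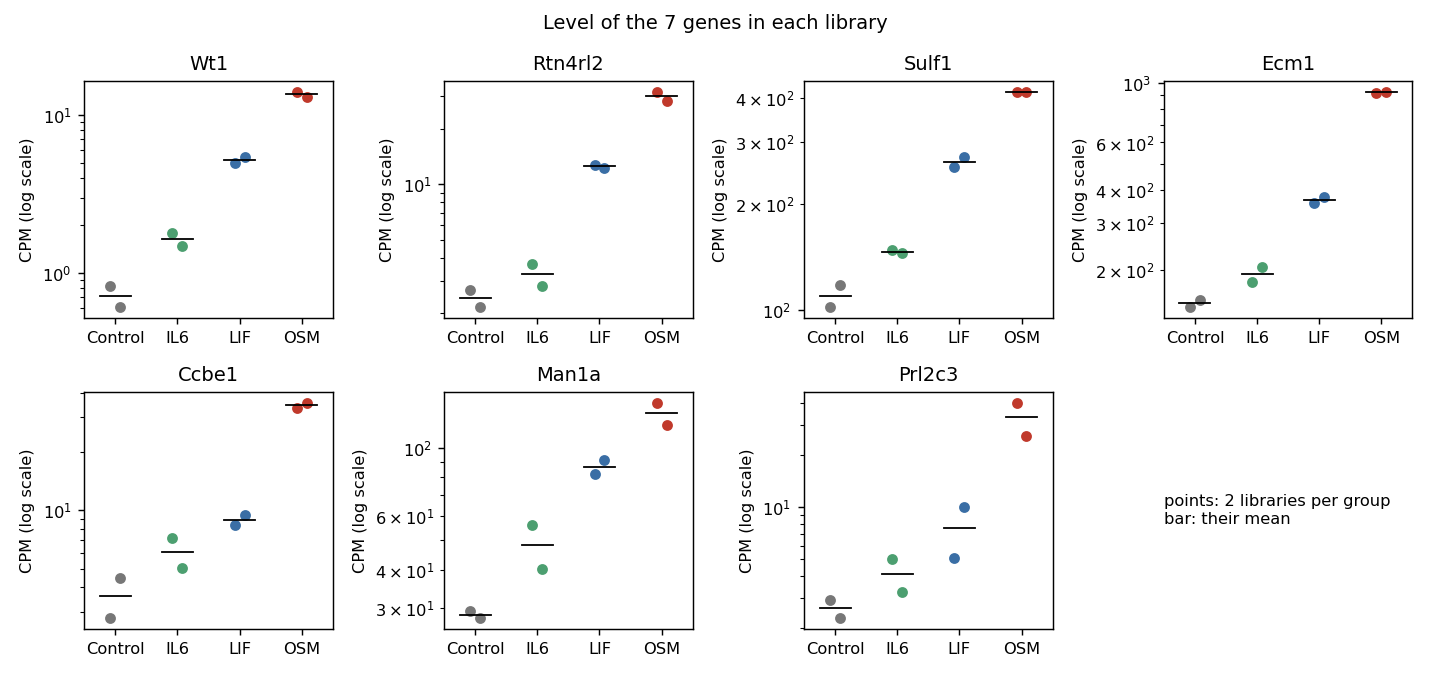
Level of each of the 7 genes in CPM (log axis) in the 8 libraries, by group; points are libraries and bars are means of 2. In each panel the groups ascend from control through IL6 and LIF to OSM without overlap, and the LIF and OSM libraries lie farthest apart in Prl2c3. In Prl2c3 the higher IL6 library (5.03 CPM) nearly meets the lower LIF library (5.11 CPM). In Rtn4rl2 the higher control library (2.68 CPM) nearly meets the lower IL6 library (2.80 CPM).

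Wt1 (ENSMUSG00000016458), the transcription factor gene, went from barely detected to clearly present. Its reads numbered 24 and 18 in the control libraries, 54 and 44 with IL6, 148 and 162 with LIF, and 410 and 388 with OSM. Scaled to library size these means were 0.714 ± 0.155 CPM in control, 1.64 ± 0.214 with IL6, 5.202 ± 0.317 with LIF and 13.5 ± 0.711 with OSM (SD, n = 2). The fitted log2 change with OSM was 4.24 (SE 0.19), and only 10 of the 15603 tested genes had a larger one. Its antisense partner Wt1os had 1 count in 1 library and 0 in the others, which allows up to 3 counts per library.

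Rtn4rl2 (ENSMUSG00000050896), the Nogo receptor relative, stood at 2.68 and 2.15 CPM in control and at 3.70 and 2.80 CPM with IL6, groups that lie next to each other. With LIF it reached 12.8 and 12.3 CPM and with OSM 31.8 and 28.3 CPM. The fitted log2 change with OSM was 3.64 (SE 0.15), with 23 tested genes larger.

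Among the secreted and matrix proteins, Sulf1 (ENSMUSG00000016918) had 101.6 and 117.9 CPM in control, 148.0 and 144.7 CPM with IL6, 254.7 and 271.8 CPM with LIF, and 414.6 and 415.6 CPM with OSM. Ecm1 (ENSMUSG00000028108) had 145.5 and 155.6 CPM in control, 180.9 and 205.8 CPM with IL6, 357.9 and 375.4 CPM with LIF, and 918.7 and 927.2 CPM with OSM. These are the most abundant genes of the 7, and the OSM libraries of each agree closely. Sulf1 had the smallest fitted log2 change with OSM, 1.92 (SE 0.073), while that of Ecm1 was 2.62 (SE 0.073). Between LIF and OSM the step was 1.33 on the log2 scale for Ecm1 (SE 0.070) and 0.66 for Sulf1 (SE 0.070).

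Ccbe1 (ENSMUSG00000046318) had 2.78 and 4.47 CPM in control and 7.14 and 5.06 CPM with IL6. It had 8.34 and 9.48 CPM with LIF and 33.6 and 35.8 CPM with OSM. The control libraries lie far apart for their level, IL6 and LIF lie close to each other, and the OSM libraries stand well above the rest. The fitted log2 change with OSM was 3.26 (SE 0.19), of which 1.96 (SE 0.17) lay between LIF and OSM. In the GENCODE M21 annotation, 2.95% of its exon bases overlap Gm15958 on the opposite strand.

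Man1a (ENSMUSG00000003746), the glycan-trimming enzyme, had 29.3 and 27.8 CPM in control, 56.1 and 40.1 CPM with IL6, 82.2 and 91.3 CPM with LIF, and 140.3 and 118.3 CPM with OSM. Library 1 was the higher with IL6 and with OSM. The fitted log2 change with OSM was 2.18 (SE 0.15). Here the larger part of the change lay below OSM, since LIF against control was 1.60 (SE 0.15) and OSM against LIF 0.58 (SE 0.14).

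Prl2c3 (ENSMUSG00000056457), the proliferin, had 85 and 68 reads in control, 152 and 96 with IL6, 152 and 301 with LIF, and 1179 and 772 with OSM. Library 1 was the higher in control, IL6 and OSM and the lower with LIF. The fitted log2 change with OSM was 3.67, with the largest SE of the 7 (0.39). Of the 50-base stretches of its longest M21 transcript, 78.6% also occur in other genes, Prl2c2 and Prl2c5 among them, and 173 stretches are its own. Its counts are therefore uncertain as to gene.

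Prl2c2, which shares 89.5% of its stretches, had 51 and 46 reads in control, 136 and 76 with IL6, 78 and 93 with LIF, and 294 and 181 with OSM. Its fitted log2 changes were 1.10 (SE 0.33) with IL6, 0.80 (SE 0.34) with LIF and 2.29 (SE 0.31) with OSM, so for Prl2c2 the mean with IL6 lay above that with LIF, and LIF against IL6 did not pass (−0.30, SE 0.30, edgeR adjusted p 0.745). Prl2c5, which shares 39.6% and has 557 stretches of its own, had 0 to 7 reads over the 8 libraries and was not tested. Prl2c1 had 0 reads in each library, which allows up to 3 per library. Igf2r, which encodes a receptor for proliferin, stood between 493.8 and 537.7 CPM in the 4 group means and was not called in any comparison with edgeR.

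**Figure D2:**
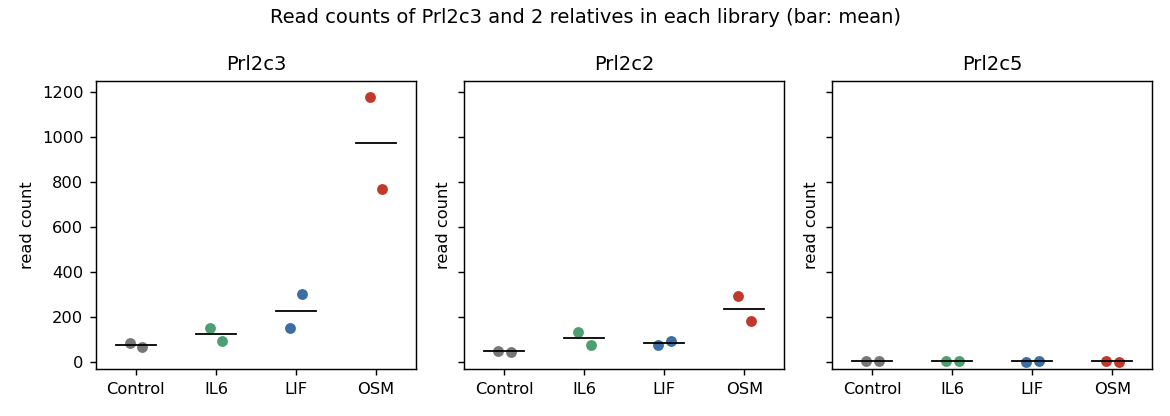
Read counts of Prl2c3, Prl2c2 and Prl2c5 in the 8 libraries on a shared linear axis; points are libraries and bars are means of 2. Prl2c3 reaches 772 and 1179 reads with OSM, Prl2c2 181 and 294, and Prl2c5 at most 7 in any library.

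LIF against IL6 compares libraries that took no part in the choice by OSM against control, and it tests a step of the grading directly. The label of the group of genes names the grading, so the result is not independent of earlier knowledge of these data. Of the 7 genes 5 were called higher with LIF, at an adjusted p under 0.05 in edgeR's quasi-likelihood test over all genes, where 1.76% of tested genes were called higher. Both LIF libraries stood above both IL6 libraries in CPM in all 7 genes, as in 21.3% of tested genes. For Prl2c3 this rests on library scaling. IL6 library 1 and LIF library 1 both had 152 reads, which gave 5.03 and 5.11 CPM. The median log2 difference over the 7 was 0.88, against −0.007 over all tested genes.

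The largest difference was in Rtn4rl2, at 1.95 on the log2 scale (SE 0.15, edgeR adjusted p 1.29e-05). Wt1 followed with 1.67 (SE 0.18, edgeR adjusted p 0.000315), and Ecm1 with 0.92 (SE 0.070, edgeR adjusted p 1.29e-05). Sulf1 was higher by 0.85 (SE 0.071, edgeR adjusted p 2.97e-05). Man1a was higher by 0.85 (SE 0.14, edgeR adjusted p 0.0149), a call lost without LIF replicate 1 (adjusted p 0.0680) and without LIF replicate 2 (adjusted p 0.125). Ccbe1 (0.54, SE 0.19, edgeR adjusted p 0.184) and Prl2c3 (0.88, SE 0.39, edgeR adjusted p 0.368) did not pass. When no gene was filtered out, Ccbe1 passed (edgeR adjusted p 0.00244), and its alternatives gave 0.00244 to 0.672. The summed fibroblast markers also lay higher with LIF than with IL6 in both libraries, at the values above, and their part in these differences was not tested.

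**Figure D3:**
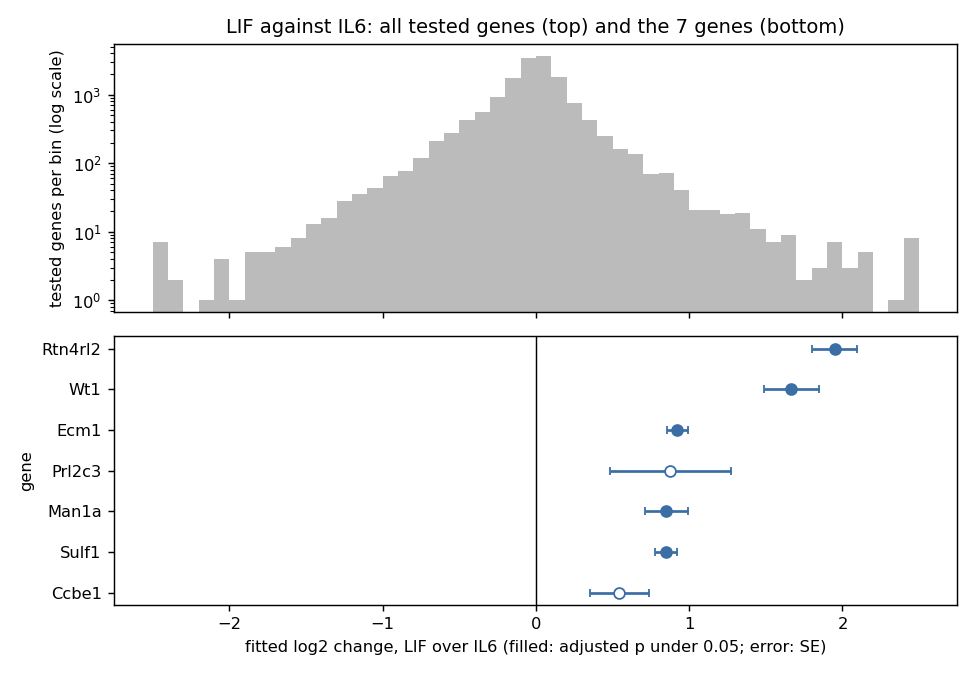
Top, number of tested genes (log axis) by fitted log2 change of LIF over IL6, with values beyond 2.5 set to 2.5; bottom, the 7 genes with their SE, filled where the adjusted p is under 0.05. Most genes lie around 0, and the 7 lie between 0.54 and 1.95.

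LIF against control shares the control libraries with the contrast that chose the genes. Of the 7, 6 were called higher, where 4.2% of tested genes were. Fitted log2 changes were 2.86 for Wt1 (SE 0.21), 2.38 for Rtn4rl2 (SE 0.16), 1.60 for Man1a (SE 0.15), 1.55 for Prl2c3 (SE 0.42), 1.30 for Ccbe1 (SE 0.21), 1.28 for Ecm1 (SE 0.071) and 1.26 for Sulf1 (SE 0.072). The highest edgeR adjusted p among the 6 was 0.00283, for Ccbe1. Prl2c3 did not pass (edgeR adjusted p 0.0758). It passed with the DESeq2 Wald test (0.0218), in a fit of these 2 groups alone (0.0136), without LIF replicate 1 (0.0205), without OSM replicate 1 (0.0303) and without OSM replicate 2 (0.0323), and its alternatives gave 0.0136 to 0.398.

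IL6 against control is the lowest step and also shares those controls. None of the 7 genes was called by edgeR, as 0% of tested genes were called higher. At an unadjusted p under 0.05 there were 6 of the 7, Prl2c3 being the exception, and 795 of all tested genes. DESeq2 called 3 of the 7, Sulf1, Ecm1 and Man1a, among 19 genes in all, and gave no adjusted p for Wt1. Both IL6 libraries stood above both control libraries for all 7, as for 14% of tested genes. The fitted log2 changes were 1.19 for Wt1 (SE 0.25), 0.75 for Man1a (SE 0.15), 0.75 for Ccbe1 (SE 0.21) and 0.67 for Prl2c3 (SE 0.46). They were 0.43 for Rtn4rl2 (SE 0.18), 0.41 for Sulf1 (SE 0.072) and 0.36 for Ecm1 (SE 0.070). The separation of control and IL6 depends on the fit. When no gene was filtered out edgeR called 5, Wt1, Sulf1, Ecm1, Ccbe1 and Man1a, among 97 called of 27694 genes. For Man1a that fit gave an edgeR adjusted p of 3.5e-14, against 0.438 in the main fit. The fitted log2 change was 0.75 in both. Adjusted p of the unfiltered fit, here and for Ccbe1 above, should therefore be read with caution. Without IL6 replicate 2 the log2 changes were 1.32 for Wt1, 0.98 for Ccbe1, 0.97 for Man1a and 0.95 for Prl2c3. They were 0.62 for Rtn4rl2, 0.43 for Sulf1 and 0.26 for Ecm1.

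**Figure D4:**
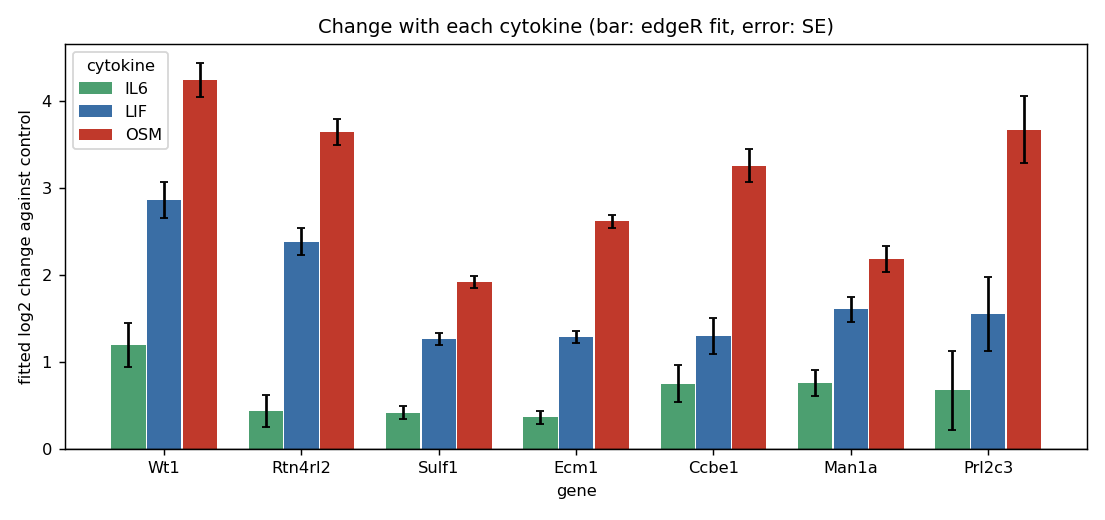
Fitted log2 change of each of the 7 genes against control with IL6, LIF and OSM; bars are edgeR estimates and error bars their SE. The 3 cytokines share the control libraries; OSM values run from 1.92 for Sulf1 to 4.24 for Wt1.

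With OSM all 7 lay highest, by their choice. Over all tested genes 10.8% were called higher against control, 8.02% against IL6 and 4.01% against LIF, and both OSM libraries exceeded both LIF libraries in 28.1%. Fitted log2 differences of OSM over LIF ran from 0.58 for Man1a to 2.12 for Prl2c3 (SE 0.34), and those of OSM over IL6 from 1.43 for Man1a (SE 0.14) to 3.205 for Rtn4rl2 (SE 0.14).

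The genes differ in how far LIF and IL6 carried them towards the OSM level. On the linear CPM scale, the mean with LIF covered 57.7% of the distance from control to OSM for Man1a and 50.3% for Sulf1. It covered 36.8% for Rtn4rl2, 35.0% for Wt1 and 28.0% for Ecm1. For Ccbe1 and Prl2c3 it covered 17.0% and 16.4%. Over the 342 genes that were called and at least 2-fold higher with OSM, the median was 37.3%, with quartiles of 22.2% and 57.4%, so the 7 spread over much the same range. With IL6 the share ran from 3.04% for Rtn4rl2 to 19.4% for Man1a, against a median of 11.5% and quartiles of 4.26% and 24.1%. Single libraries move these shares. With IL6 library 1 alone they were 4.67% for Rtn4rl2, 3.93% for Ecm1, 11.3% for Ccbe1, 27.3% for Man1a and 7.95% for Prl2c3. With IL6 library 2 alone they were 1.40%, 7.16%, 4.62%, 11.4% and 2.09% for the same genes, so their order with IL6 is not fixed. For Prl2c3 the LIF share was 8.23% with LIF library 1 and 24.5% with LIF library 2.

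The partners of each gene were read from lists written from general knowledge. With IL6 no gene of these lists was called by edgeR or DESeq2, and 0 to 2 genes per list had an unadjusted p under 0.05 in edgeR. For heparan sulfate, the chains that SULF1 acts on, 18 of 19 listed genes were tested. The list holds genes of enzymes that build, modify or cut the chains and of core proteins that carry them. With OSM 8 were called higher and 3 lower, where 10.8% of all tested genes were called higher and 10.6% lower, with a median log2 change of 0.21 against −0.003 over all tested genes. With LIF 6 were called higher and 0 lower (median 0.098), where 4.2% and 3.46% of all tested genes were. The 6 were Hs6st2 and the core protein genes Sdc1, Sdc3, Sdc4, Gpc4 and Gpc6. Sulf2, the other extracellular sulfatase, went the other way from Sulf1. It was at 165.8 CPM in control, 165.1 with IL6, 150.4 with LIF and 95.8 with OSM, and fell by 0.79 on the log2 scale with OSM (edgeR adjusted p 4.64e-07). LIF against control did not pass for Sulf2 (−0.14, edgeR adjusted p 0.173). Sdc1, which encodes the core protein syndecan-1, rose from 131.9 to 262.9 CPM with LIF and to 538.3 CPM with OSM, log2 changes of 0.995 and 2.03 (edgeR adjusted p 1.36e-06 and 7.72e-10). LIF against IL6 was 0.88 for Sdc1 (edgeR adjusted p 9.11e-06). The core protein genes Sdc3, Sdc4 and Gpc6 rose with OSM by 0.61, 0.72 and 0.37. The chain-building genes Ext1, Ext2 and Extl3 rose by 0.49, 0.40 and 0.27, and the chain-modifying gene Ndst1 by 0.58. Glce and Hs6st1, which also encode chain-modifying enzymes, fell with OSM by 0.55 and 0.27 (edgeR adjusted p 0.000108 and 0.0060).

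In the VEGF-C pathway of CCBE1, 7 of 9 genes were tested. Vegfd, which encodes the close relative VEGF-D, rose from 7.22 CPM in control to 17.4 with LIF and 25.96 with OSM, by 1.27 and 1.84 on the log2 scale (edgeR adjusted p 8.61e-05 and 3.54e-07). Vegfc itself was at 10.6 CPM in control and 9.91 with OSM and was not called (−0.10, edgeR adjusted p 0.630), and Adamts3 had 37 to 63 counts and was not called. The receptor gene Flt4 had 1 to 8 counts. Nrp2, a co-receptor, fell with OSM by 0.23 (edgeR adjusted p 0.0100). Counts for the list were 1 higher and 1 lower with OSM, and 1 and 0 with LIF, against 10.8% and 10.6% of all tested genes with OSM and 4.2% and 3.46% with LIF. For a list of 7 genes the OSM count is near those shares.

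**Figure D5:**
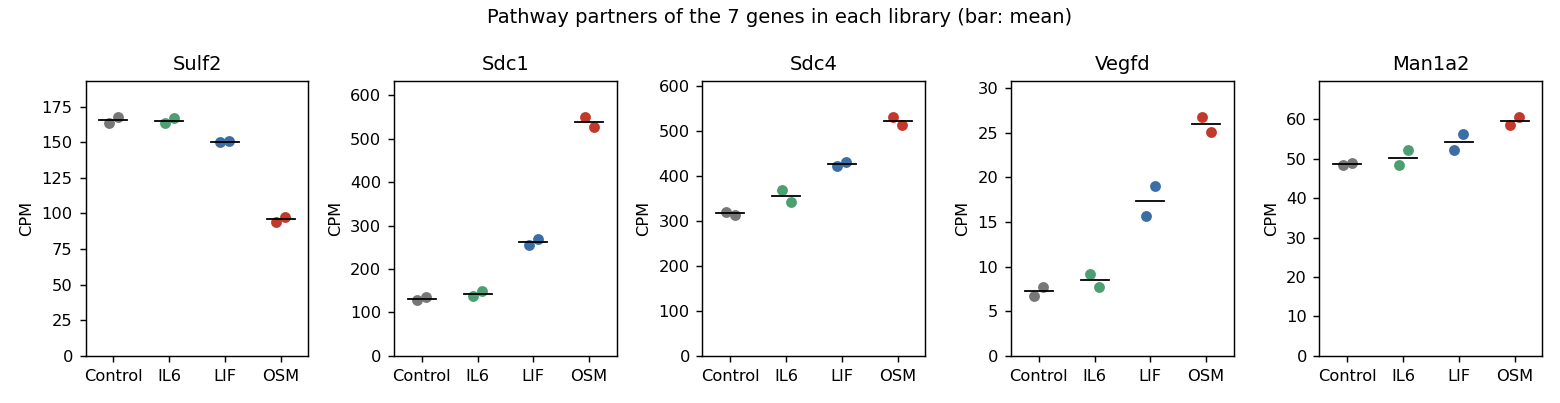
Level in CPM (linear axes from 0) of Sulf2, Sdc1, Sdc4, Vegfd and Man1a2 in the 8 libraries; points are libraries and bars are means of 2. Sdc1 and Vegfd are highest with OSM and intermediate with LIF, while Sulf2 is lowest with OSM.

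For N-glycan trimming, the pathway of MAN1A, all 13 listed genes were tested, and 5 were called higher with OSM and 0 lower (median 0.13), against 10.8% and 10.6% of all tested genes. With LIF edgeR and DESeq2 called 0, and 4 had an unadjusted p under 0.05 in edgeR. Of the 5 the highest log2 change was 0.49, for Edem2 and Mgat2, and the mannosidase gene closest to Man1a, Man1a2, rose by 0.29 (edgeR adjusted p 0.0088), from 48.7 to 59.6 CPM. Of the Nogo receptor list 5 of 8 were tested and 0 called in any comparison by edgeR. With OSM against control 1 had an unadjusted p under 0.05 in edgeR, and DESeq2 called 1. Rtn4r had 3 to 9 counts and Rtn4rl1 5 to 12, while Rtn4 itself stood at 713.0 to 808.9 CPM in the group means. Among proteins known to bind ECM1, all 5 tested, Mmp9 rose with OSM by 1.03 (edgeR adjusted p 0.000326) and Fbln1 and Lamb3 fell by 0.46 and 0.82, against 10.8% of all tested genes called higher and 10.6% lower. Hspg2 and Fn1 were not called.

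Of the WT1 partners 5 of 6 were tested. Basp1, which encodes a WT1 corepressor, rose with OSM by 0.69 (edgeR adjusted p 4.42e-05), Pawr fell by 0.72 (edgeR adjusted p 0.0234), which for 5 genes is near the 10.8% and 10.6% of all tested genes. With LIF edgeR and DESeq2 called 0, with 2 at an unadjusted p under 0.05. Because Wt1 marks mesothelium, 12 mesothelial and epicardial genes were read beside it. Of these 6 were tested and 0 called in any comparison by edgeR. DESeq2 also called 0 against control, and at an unadjusted p under 0.05 edgeR gave 0 with OSM and 1 with LIF. Upk3b, Bnc1 and Tcf21 were at 0 in each library and Lrrn4 and Krt18 had at most 1 count, while Msln had 4105 to 5263 counts. The sum of the 6 genes kept as mesothelial markers was 166.8 to 214.7 CPM in control, 178.9 to 200.4 with IL6, 180.4 to 206.4 with LIF and 180.5 to 189.7 with OSM, so the groups overlap.

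Of 17 genes of gp130 signalling, all tested, 11 were called higher and 1 lower with OSM (median 0.39), where 10.8% and 10.6% of all tested genes were. With LIF 7 were called higher and 0 lower (median 0.17), where 4.2% and 3.46% were. Against IL6, LIF was called higher for 7, where 1.76% of all tested genes were. Socs3 stood at 42.9 CPM in control, 51.9 with IL6, 118.5 with LIF and 110.4 with OSM, and OSM against LIF did not pass for this feedback gene (−0.10, edgeR adjusted p 0.398). Stat5a, a STAT factor gene, was at 25.6, 28.4, 44.7 and 54.5 CPM in the same order of groups, with LIF above IL6 by 0.65 (edgeR adjusted p 0.000321).

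Pearson correlations between the 7 genes, on log2 CPM over the 8 libraries, ran from 0.919 for Ccbe1 and Man1a to 0.988 for Wt1 and Sulf1. They share libraries and groups, and the genes were chosen for a common rise, so these are descriptions. Of 10864 candidates, each averaging 100 counts or more, those nearest to Wt1 were Casp6 (r = 0.998), Elfn1 (0.995) and Htra3 (0.994). Nearest to Rtn4rl2 were Tgfbr2 (0.997), Vcan (0.996) and Alas1 (0.993), and to Sulf1 Adora2b (0.996), Col16a1 (0.995) and Mxd1 (0.995). For Ecm1 they were Serpinb6a, Ctsa and Adamtsl4 (each 0.998), for Ccbe1 Calcrl (0.994), Cdh17 (0.992) and Selenon (0.992). For Man1a they were the metallothionein genes Mt2 (0.998) and Mt1 (0.994) with Ampd3 (0.992), and for Prl2c3 Agpat2 (0.995), Wnt11 (0.992) and Ptprj (0.990). A like pattern did not mean a like size. Alas1, among the 3 nearest to Rtn4rl2, differed by only 0.33 on the log2 scale between OSM and control. Adamtsl4, among the 3 nearest to Ecm1, differed by 2.75.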

How the data were processed

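The authors deposited a file of unnormalized read counts for each library. The submitters' processing notes name Trim Galore 0.6.5, STAR 2.7.3a, HTSeq 0.11.1 and the build GRCm39, with FastQC 0.11.9, MultiQC 1.12 and DESeq2 1.34.0. The notes give no role or order, and HTSeq's strand setting and annotation release are not given in the sources used here. Libraries came from a stranded mRNA kit, per the labels' protocols. HTSeq's summary lines (11.7% to 12.7% of records, among them reads with several placements) were kept out, which lowers counts of genes with near copies such as Prl2c3. Symbols, exon lengths and shared 50-base stretches came from GENCODE M21, an annotation of an earlier build that holds 52093 of the 53647 identifiers.

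edgeR 4.0.16 in R 4.3.3 was run on all 8 libraries: filterByExpr at a minimum count of 10, TMM scaling, a mean per group and robust quasi-likelihood F tests, with 4 residual degrees of freedom before moderation and Benjamini-Hochberg adjustment over 15603 genes at a threshold of 0.05. CPM are TMM-scaled, log2 CPM used a prior count of 2, and SE is the log2 change divided by the root of F. The fit was tested on simulated data. Counting error limits low counts, such as the 18 to 24 reads of Wt1 in control, and the limit of 3 counts for a 0 covers counting error only. The chi-square per gene between the libraries of a group averaged 2.89 to 11.4, so none were taken for 1 library deposited in duplicate.

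The genes and lists were chosen with earlier results of these data known. Named genes are the 7, the lists' members, and for each of the 7 the 3 best-correlated genes averaging 100 counts or more with a symbol of no Gm or Rik form. Alternatives were DESeq2 1.42.0, its size factors, no count filter, a replicate block, fits of 2 groups, each library left out, a 2-fold requirement and log2 ratios with 1 CPM added.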

Additional observations from a re-analysis of the deposited data

How the results depend on the processing

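Over 42 fitted changes (7 genes in 6 comparisons), 587 alternative values gave 0 reversals of direction, 12 lost the call and 22 gained it. The 42 include the comparisons with OSM, where the choice of the genes favoured the direction beforehand, so nothing is read from their lack of reversals. Lost calls were those of Man1a and Prl2c3 for OSM against LIF and of Man1a for LIF against IL6. Values moved by more than the SE of the fit in 47 of 336 cases with a library left out, in 12 of 42 with 1 CPM added and in 0 of 209 others. The called genes among the 7 for LIF against IL6 numbered 2 with a 2-fold requirement. For IL6 against control they numbered 3 with DESeq2, 5 without a filter on low counts and 2 with the replicate block, and 0 to 4 with a library left out. The cause was not tested. Of all 15603 tested genes, 9 were called for IL6 against control with the replicate block. A fit with a library left out has 1 library in that group, so nothing is read from its count of the 7. No count over all genes is set beside the 2 for LIF against IL6, so nothing is read from that either. Called genes in all numbered 763 (OSM against control), 283 (against LIF) and 553 (against IL6) with a 2-fold requirement, and 2928 for OSM against LIF with only those groups fitted. Leaving out a library gave 1622 to 4067, 437 to 1764 and 1105 to 2713 in these comparisons, against 3335, 1255 and 2426 with all 8. The low values came without OSM replicate 1 (1622, 450 and 1105), OSM replicate 2 (1865, 635 and 1333), LIF replicate 1 (437 for OSM against LIF) or LIF replicate 2 (607), where a group has 1 library and is assumed to vary like the others.

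Replicate numbers are shared between groups, and the deviations of same-numbered libraries correlated at 0.007 to 0.181. The main fit did not take the numbers as pairs. With a replicate block the called genes rose from 434 to 826 for LIF against IL6. They rose from 1195 to 1670 for LIF against control and from 0 to 9 for IL6 against control. Whether the numbers mark pairs was not tested. With 2 libraries per group, low counts such as those of Wt1, Rtn4rl2 and Prl2c3 limit the precision of the lowest step.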
